A study of Mus musculus with 3 samples.

Results

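Arc, Homer1, Nptx2, Inhba, Btg2 and Vgf are 6 genes known in neurons to be transcribed after strong synaptic activity, and all 6 were found by symbol among the 32285 genes of the count matrices. Arc and Homer1 encode postsynaptic proteins, Nptx2, Inhba and Vgf encode secreted ones, and Btg2 encodes a regulator of growth and mRNA decay that is known as neither synaptic nor secreted. They were chosen by their levels and detected shares per class and library, so their levels and differences between classes are given as descriptions, with no test.

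Nuclear RNA was measured in single hippocampal nuclei of 3 adult female mice. All 3 mice carried the genotype Scn8aD/+, with 1 D allele of Scn8a, the gene of a voltage-gated sodium channel, and their titles place them after seizure onset. They formed a single group, no control animals were analysed here, and each mouse was a batch of its own. Mouse and batch therefore cannot be told apart. The comparisons therefore lie between classes of nuclei of the same mice, and induction by seizures cannot be measured. The 3′ counts do not separate the alleles of Scn8a and do not check the genotype.

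Activity-induced genes respond to calcium entry through synaptic receptors and voltage-gated channels, which activates kinases and transcription factors such as CREB, MEF2 and SRF. In the hippocampus the response is best known in dentate granule cells and CA pyramidal cells, where it follows learning and seizures. Arc takes part in the removal of AMPA receptors from synapses, and the short form of Homer1 uncouples metabotropic glutamate receptors from their scaffold. Nptx2 gathers AMPA receptors at excitatory synapses onto inhibitory neurons, Inhba gives the subunit of activin A, and Vgf is cut into signalling peptides.

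The libraries of mice 1, 2 and 3 held 100230288, 50931257 and 140527761 UMIs, and 7933, 11807 and 4387 nuclei passed the filters. Median depth of the kept nuclei was 8454, 1796 and 24855 UMIs. Levels are given as CPM, the UMIs of a gene per 1000000 UMIs of all nuclei of a class in a mouse. Classes carry the ending -like because they rest on marker genes alone. Of 37 clusters, 21 had at least 80% of their nuclei from 1 mouse, and 3940 nuclei of mouse 2 and 321 of mouse 1 lay in 5 clusters without a name. The astrocyte gene Gpc5 was among the 10 leading genes of both CA1-like clusters, and 1 of them had no CA1 marker there, which limits that name. The same limit holds for 2 granule-like clusters, of 407 nuclei of mouse 3 and 746 of mouse 2, which had no granule marker among their 10 leading genes. Of the CA3-like nuclei of mouse 3, 258 came from a cluster with a mean log2 of 1.20 for CA3 markers and 0.95 for CA2 markers. The CA3-like cluster of mice 1 and 2 had 1.78 and 0.03. CA3-like nuclei of mouse 3 were thus less clearly apart from CA2, which limits every comparison with them. Pan-glutamatergic markers summed to 1284, 1939 and 1681 CPM in glia of mice 1, 2 and 3, against 2947, 2729 and 3006 CPM in glutamatergic nuclei. Inhibitory nuclei of mouse 2 had 1340 CPM of them, against 636 and 604 CPM in mice 1 and 3, and 948 of its 1404 inhibitory nuclei had no subtype. A group of 388 of those had 4 pan-glutamatergic markers raised and a mean log2 of -1.02 for pan-inhibitory markers, relative to the other inhibitory nuclei, which limits every inhibitory value of mouse 2. Between 13 and 36 barcodes were shared by a pair of libraries.

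In the annotation of the same build (mm10, GENCODE M21), Arc lies on chromosome 15 from 74669083 to 74672570 on the minus strand. Homer1 lies on chromosome 13 from 93299635 to 93405129 on the plus strand, and Inhba on the same chromosome from 16011851 to 16031621 on the plus strand. Nptx2 lies on chromosome 5 from 144545902 to 144557478 and Vgf on chromosome 5 from 137026392 to 137033351, both on the plus strand. Btg2 lies on chromosome 1 from 134075170 to 134079120 on the minus strand. Homer1 spans 105495 bases and Arc 3488, and the sources used here do not say whether intron reads were counted, so no level is compared between genes. The short and long transcripts of Homer1 are summed in its count.

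The 250 bases before the RefSeq start (GRCm38.p6) are shown for the 3 of the 6 genes with an entry, because motifs of factors that act after synaptic activity are known in such promoters. Capitals mark the motifs found on either strand.
Btg2, chr1:134079156-134079405, minus strand: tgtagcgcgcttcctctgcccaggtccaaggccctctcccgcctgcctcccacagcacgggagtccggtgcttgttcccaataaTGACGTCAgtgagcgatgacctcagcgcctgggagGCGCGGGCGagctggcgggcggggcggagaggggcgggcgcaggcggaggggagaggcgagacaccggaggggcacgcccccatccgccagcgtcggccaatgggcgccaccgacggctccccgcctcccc
Homer1, chr13:93303507-93303756, plus strand: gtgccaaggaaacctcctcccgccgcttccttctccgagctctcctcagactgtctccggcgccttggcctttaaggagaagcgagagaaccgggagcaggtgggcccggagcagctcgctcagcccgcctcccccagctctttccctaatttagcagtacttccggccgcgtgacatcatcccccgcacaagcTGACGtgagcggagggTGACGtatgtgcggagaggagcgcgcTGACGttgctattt
Inhba, chr13:16011601-16011850, plus strand: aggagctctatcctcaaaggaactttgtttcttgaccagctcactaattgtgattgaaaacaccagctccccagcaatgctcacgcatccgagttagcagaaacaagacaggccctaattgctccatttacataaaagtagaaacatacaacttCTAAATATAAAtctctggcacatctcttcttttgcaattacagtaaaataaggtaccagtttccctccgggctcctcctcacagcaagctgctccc
The Btg2 window held a full cyclic AMP response element, TGACGTCA, at -166 to -159 from the start, which 1.55% of 32851 promoter windows of this length hold. It also held an EGR motif, GCGNGGGCG, present in 4.70% of them. The Homer1 window held 3 copies of TGACG, the shorter core of that element. At least 1 copy stood in 17.8% of all windows and at least 3 copies in 0.688%. The Inhba window held a MEF2 site, present in 2.92% of windows, overlapping a TATA box, TATAAA, present in 12.4%. The AP-1 motif TGANTCA (6.75% of windows), the E-box CACGTG (6.02%) and the CArG box (1.47%) had no match in these 3 windows, and a second Homer1 start had no match to any motif searched. These are letter matches and were not measured as binding. Arc, Nptx2 and Vgf had no entry.

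Arc was at 136, 33.1 and 58.4 CPM in granule-like nuclei of mice 1, 2 and 3, against 101, 22.8 and 30.7 CPM in CA pyramidal-like nuclei. Each mouse had more Arc in granule-like nuclei, but mice differed more than classes did. The fitted log2 fold change was 0.65 ± 0.17 (SE, n = 3 mice). CA3-like nuclei had 131, 42.1 and 26.7 CPM, against 98.7, 13.1 and 33.1 CPM in CA1-like nuclei, higher in mice 1 and 2 and lower in mouse 3. Inhibitory neuron-like nuclei had 41.1, 11.4 and 21.8 CPM, against 98.5, 22.1 and 41.1 CPM in glutamatergic ones, lower in every mouse. Sst-like nuclei, a class of dendrite-targeting interneurons, reached 84.7 and 39.9 CPM in mice 1 and 3, and 12.8 CPM, from 3 UMIs, in mouse 2. In Vip-like nuclei of mouse 2 no Arc UMI was found in 37 nuclei, which allows up to 12.4 CPM.

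Of the 6 genes Homer1 differed least between mice in granule-like, CA3-like and CA1-like nuclei. Granule-like nuclei had 1197, 908 and 1253 CPM, against 679, 768 and 1114 CPM in CA pyramidal-like nuclei, higher in every mouse, with a log2 fold change of 0.42 ± 0.18 (SE, n = 3). CA3-like nuclei had 604, 828 and 1236 CPM, against 719.6, 752 and 1038 CPM in CA1-like nuclei, with no common direction, and the mean log2 CPM ratio of 0.05 was -0.06 without mouse 3 or with thinned nuclei. Inhibitory nuclei had 233, 429 and 511 CPM, against 792, 739 and 1184 CPM in glutamatergic nuclei, a log2 fold change of -1.38 ± 0.21, lower in every mouse. Among the named inhibitory subtypes Sst-like nuclei were highest in each mouse, at 313, 393 and 781 CPM. The highest class of all was granule-like in mice 1 and 2, and subicular or cortical glutamatergic-like in mouse 3 at 1481 CPM. The name of that last class is weak. Of its 382 nuclei in mouse 3, 169 came from a cluster with a mean log2 of 0.24 for its markers. Another 130 came from a cluster with none of these markers among its 10 leading genes.

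Nptx2 and Inhba did not keep 1 direction between granule-like and CA pyramidal-like nuclei. Nptx2 was at 301, 89.7 and 209 CPM in granule-like nuclei, against 105, 54.9 and 339.8 CPM in CA pyramidal-like nuclei. Inhba was at 72.3, 102 and 227 CPM in granule-like nuclei, against 19.8, 68.0 and 386 CPM in CA pyramidal-like nuclei. Both genes were higher in granule-like nuclei of mice 1 and 2 and lower in those of mouse 3, so the fitted log2 fold changes of 0.53 ± 0.37 and 0.56 ± 0.44 average opposite values. Without mouse 1 the mean log2 CPM ratio was 0.0051 for Nptx2, in place of 0.51, and -0.09 for Inhba, in place of 0.56. In mouse 3 the highest class for both genes was CA1-like, with 358 CPM of Nptx2 and 438 CPM of Inhba. CA1-like nuclei had 129 and 54.2 CPM of Nptx2 and 23.0 and 106 CPM of Inhba in mice 1 and 2. CA3-like nuclei had 57.8, 47.5 and 309.9 CPM of Nptx2 and 14.2, 41.3 and 300.5 CPM of Inhba. These levels were lower than in CA1-like nuclei of the same mouse in all 3 mice for both genes. With thinned nuclei, Nptx2 was found in 6.38%, 0% and 30.9% of CA3-like nuclei, against 12.5%, 6.80% and 29.2% of CA1-like nuclei. By this share Nptx2 was lower in CA3-like nuclei of mice 1 and 2 and slightly higher in those of mouse 3. The share of Inhba was lower in every mouse. In mouse 2, however, glia had 48.4 CPM of Nptx2 and 53.6 CPM of Inhba. CA3-like nuclei there were not above glia for either gene by level, and CA1-like nuclei were close to glia for Nptx2. The fitted CA3-like over CA1-like log2 fold changes were -0.48 ± 0.21 for Nptx2 and -0.75 ± 0.17 for Inhba (SE, n = 3). The mean log2 CPM ratio of Inhba, -0.86, was -1.81 with called doublets kept and -0.33 with each library clustered alone.

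Inhibitory nuclei had little of either gene. Nptx2 was at 16.9, 33.0 and 55.8 CPM in them, against 141, 55.5 and 233 CPM in glutamatergic nuclei, a log2 fold change of -2.09 ± 0.43. Inhba was at 6.26, 40.5 and 64.7 CPM in inhibitory nuclei, against 36.3, 77.5 and 269 CPM in glutamatergic nuclei, a log2 fold change of -1.94 ± 0.31. Every mouse had lower levels in inhibitory nuclei. Sst-like nuclei of mouse 3 held 141 CPM of Inhba from 308 UMIs, while Pvalb-like nuclei, fast-spiking interneurons, held 2.78, 1.75 and 60.9 CPM.

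Vgf had the opposite order. Inhibitory nuclei had 99.1, 43.2 and 144 CPM, against 39.0, 25.7 and 47.5 CPM in glutamatergic nuclei, higher in every mouse, with a log2 fold change of 1.12 ± 0.17 (SE, n = 3). Sst-like nuclei had 158, 68.4 and 194 CPM, Vip-like nuclei 174.5, 61.8 and 112 CPM and Pvalb-like nuclei 88.5, 38.4 and 188 CPM. Sst-like was the highest class in mice 2 and 3 and Vip-like in mouse 1, but the values for mouse 2 rest on 16, 15 and 22 UMIs. Granule-like nuclei had 39.1, 18.5 and 41.2 CPM, against 41.6, 30.5 and 57.3 CPM in CA pyramidal-like nuclei, lower by level in every mouse with a log2 fold change of -0.40 ± 0.17. With thinned nuclei the mean log2 CPM ratio was -0.13 with an SD of 0.61 over mice, in place of -0.43 with an SD of 0.32. In mouse 2, however, the shallow cluster of 746 granule-like nuclei had 35.8 CPM, above its CA pyramidal-like nuclei, and the deep cluster of 250 had 8.88 CPM, from 65 and 29 UMIs. CA3-like nuclei had 71.3, 34.5 and 56.3 CPM, against 30.5, 18.0 and 57.8 CPM in CA1-like nuclei, higher in mice 1 and 2 and nearly level in mouse 3. Astrocyte-like nuclei of mouse 3 had 157 CPM of Vgf from 220 UMIs in 118 nuclei, against 22.5 and 42.7 CPM in mice 1 and 2, and their pan-inhibitory markers summed to 747 CPM, against 768 and 791 CPM in mice 1 and 2.

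Btg2 set granule-like nuclei furthest apart from CA pyramidal-like nuclei. It was at 207, 16.3 and 46.9 CPM in granule-like nuclei, against 30.2, 3.20 and 20.4 CPM in CA pyramidal-like nuclei, higher in every mouse, with a log2 fold change of 2.10 ± 0.29 (SE, n = 3). Of the CA pyramidal-like nuclei in these comparisons, 96 of 1278, 873 of 1129 and 1 of 849 came from the cluster in which CA2 and CA3 could not be separated, so the makeup of that class differed between mice. The value in CA1-like nuclei of mouse 2, 1.63 CPM, came from 6 UMIs. CA3-like nuclei had 45.5, 3.83 and 24.4 CPM, against 24.6, 1.63 and 17.9 CPM in CA1-like nuclei, higher in every mouse. Inhibitory nuclei had 27.9, 5.55 and 22.05 CPM, against 84.4, 7.41 and 27.8 CPM in glutamatergic nuclei, lower in every mouse. Microglia-like nuclei, the resident immune cells, had 115.5, 23.0 and 113 CPM, and in mouse 3 they were the highest class.

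**Figure D1:**
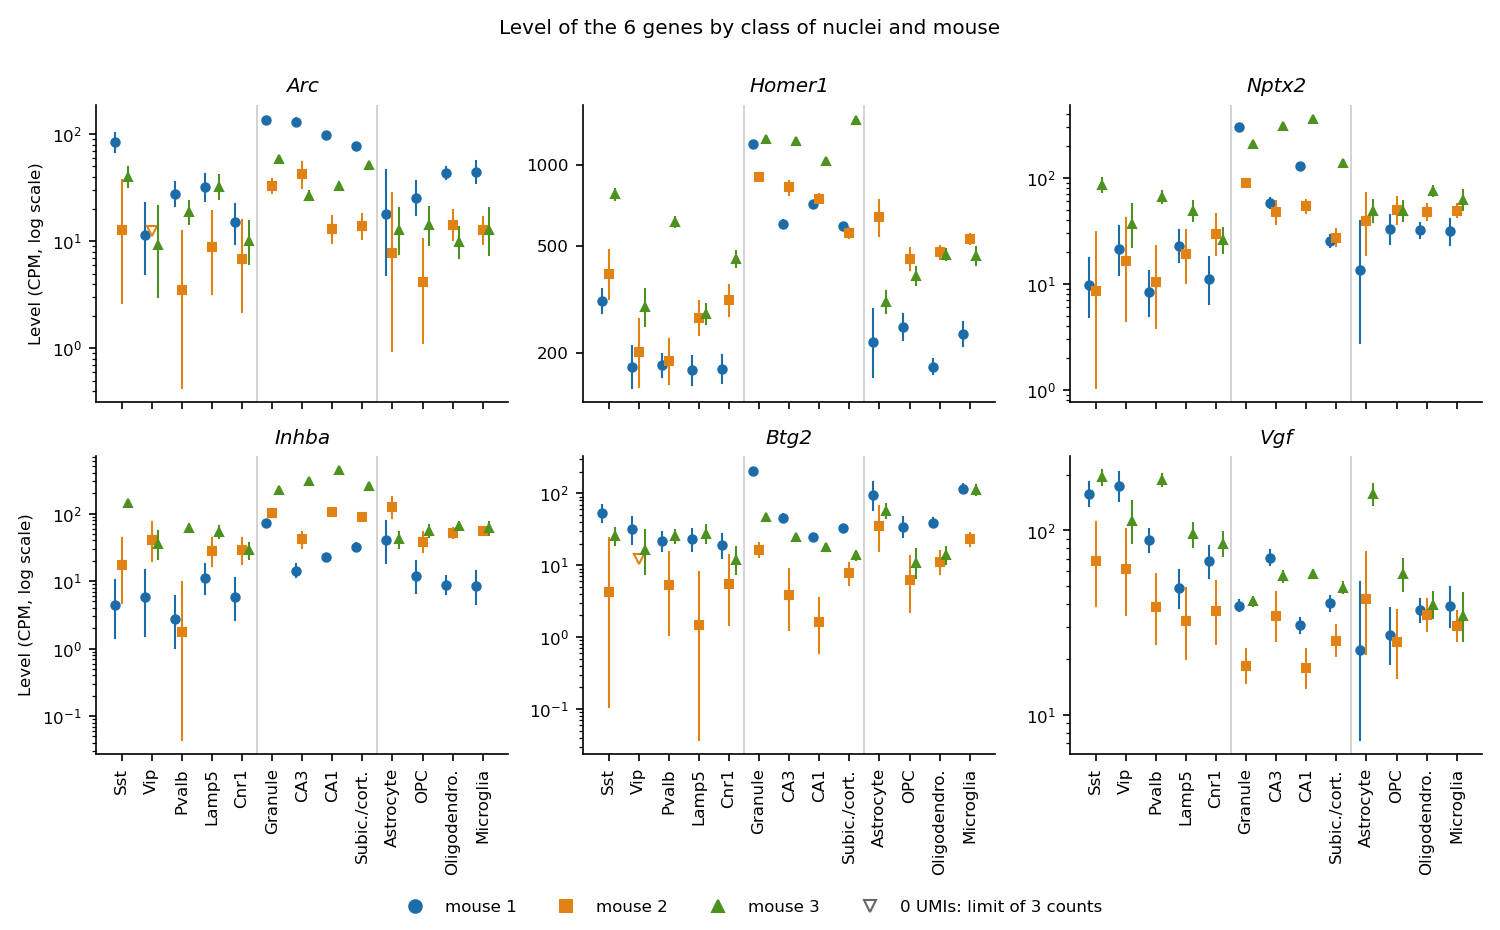
Level (CPM, log scale) of each gene in 13 classes of nuclei and 3 mice, with exact Poisson 95% intervals that cover counting error only; open triangles stand at the limit that a count of 0 allows. Homer1, Nptx2 and Inhba were higher in granule-like, CA3-like and CA1-like nuclei than in most inhibitory classes of the same mouse, and Vgf was highest in Sst-like or Vip-like nuclei.

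The order of classes was given by the mean over mice, and for every gene each class overlapped its neighbour in that order over the range of the 3 mice. Neighbours in such an order have close means, so this overlap says nothing about classes further apart. In granule-like nuclei the highest mouse exceeded the lowest by 12.7 times for Btg2 and 4.12 times for Arc, against 1.38 times for Homer1. In CA1-like nuclei the highest mouse exceeded the lowest by 19.0 times for Inhba and 6.61 times for Nptx2.

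The 6 genes did not share an order of mice. In 17 classes with at least 20 nuclei in each mouse, Arc was highest in mouse 1 in 16 and Btg2 in 15. The classes of a mouse share a library, so these are not 17 separate observations of the order. Inhba was lowest in mouse 1 in 16 of the 17 classes and highest in mouse 3 in 12, and Nptx2 was highest in mouse 3 in 13. Btg2 was lowest in mouse 2 in all 17. Homer1 was lowest in mouse 1 in 14 of the classes, and Vgf lowest in mouse 2 in 15. The 16 activity-induced transcription factor genes summed to 2725, 283 and 948 CPM in granule-like nuclei of mice 1, 2 and 3. The 22 other activity-induced genes summed to 3258, 2430 and 7886 CPM there, so the first sum was highest in mouse 1 and the second in mouse 3. The 12 stress and RNA quality genes, a list that holds the abundant nuclear RNAs Malat1 and Meg3, summed to 105779, 111520 and 80189 CPM. The part of depth, batch, RNA quality or RNA free in the library in these differences between mice was not tested.

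Free RNA can give a UMI to a nucleus that does not express a gene, so shares of nuclei with a UMI were set beside those in glia after each nucleus was thinned to 1000 UMIs. Homer1 was found in 64.7%, 60.1% and 65.8% of granule-like nuclei of mice 1, 2 and 3, against 17.4%, 39.5% and 34.9% of glia. Without thinning the shares were 99.1%, 83.7% and 100%, against 41.8%, 56.1% and 95.7% of glia, at median depths of 10108, 2343 and 24822.5 UMIs against 2868.5, 1403 and 6880. In inhibitory nuclei the thinned share was 18.7%, 37.9% and 33.3%, close to that of glia. By this share Sst-like nuclei were above glia in each mouse, at 28.9% and 46.4% in mice 1 and 3 and in 10 of 20 nuclei in mouse 2. By level, Sst-like nuclei of mouse 2 were below glia, at 393 CPM against 505 CPM. Thinning left out 1, 81 and 0 granule-like nuclei, 0, 118 and 0 inhibitory nuclei and 12, 921 and 0 glia as too shallow.

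Nptx2 was found in 28.4%, 9.51% and 20.03% of thinned granule-like nuclei, against 3.13%, 5.92% and 6.93% of glia. Inhba was found in 7.03%, 12.9% and 19.96% of them, against 0.762%, 5.46% and 6.54% of glia. In inhibitory nuclei the shares were 0.710%, 4.51% and 6.94% for Nptx2 and 0.178%, 4.51% and 5.90% for Inhba, below or close to those of glia. Arc was found in 13.4%, 4.15% and 6.35% of granule-like nuclei, against 3.33%, 1.36% and 1.46% of glia, and in 3.55%, 1.32% and 3.47% of inhibitory nuclei. Btg2 was found in 18.9%, 1.64% and 4.41% of granule-like nuclei, against 5.05%, 1.71% and 3.71% of glia, so it stood clearly above glia in mouse 1 alone. CA pyramidal-like nuclei were below glia for Btg2 in all 3 mice, at 3.29%, 0.445% and 1.88%, and the glia include the microglia-like nuclei with a high level. Vgf was above glia in inhibitory nuclei, at 8.88%, 5.13% and 13.5%, against 3.97%, 3.45% and 4.49% of glia, while granule-like nuclei were close to glia at 4.80%, 3.93% and 3.59%. CA pyramidal-like nuclei had Vgf in 3.91%, 3.56% and 6.60%, so by this share granule-like nuclei were lower in mouse 3 alone.

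**Figure D2:**
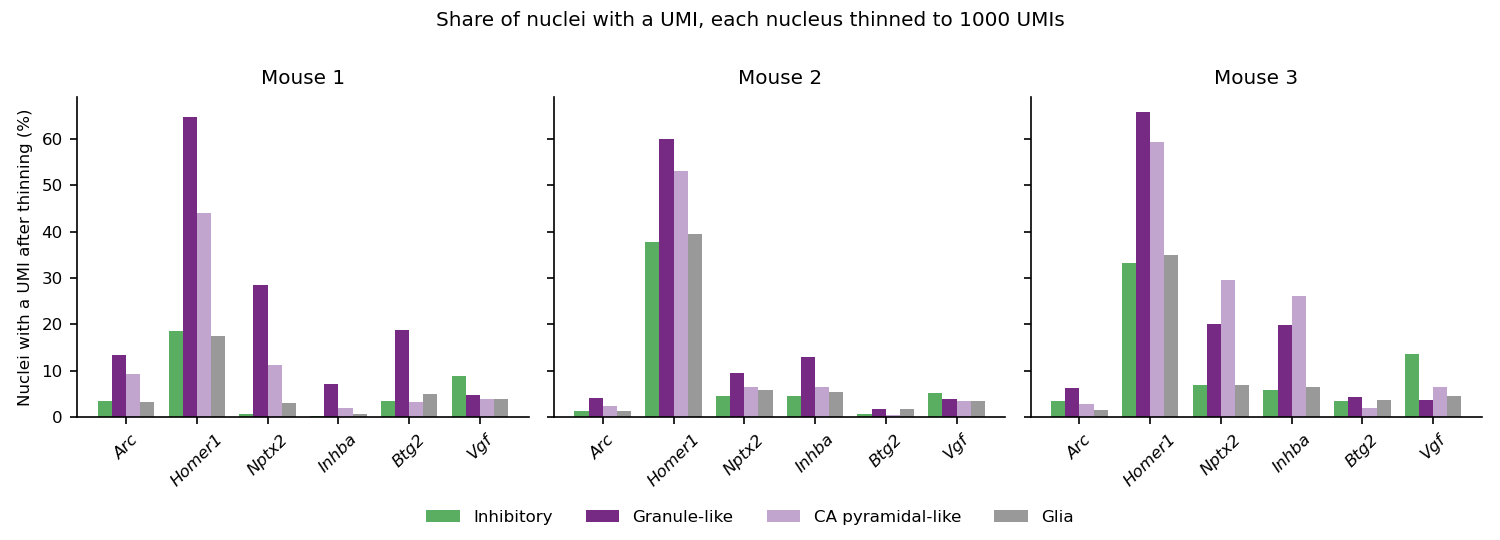
Share of nuclei with at least 1 UMI of each gene (%), after thinning every nucleus to 1000 UMIs, in inhibitory, granule-like, CA pyramidal-like and glial nuclei, with 1 panel per mouse and no error bars. Homer1 reached 64.7%, 60.1% and 65.8% of granule-like nuclei, and in inhibitory nuclei it lay near its share in glia.

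After thinning, 40.3%, 17.3% and 32.7% of granule-like nuclei held UMIs of at least 2 of the 6 genes. The share was 14.9%, 11.2% and 34.5% in CA1-like nuclei and 3.91%, 6.92% and 12.8% in inhibitory nuclei. Homer1 by itself reached 64.7%, 60.1% and 65.8% of granule-like nuclei. Over the thinned counts of granule-like nuclei, Pearson r of log counts ran from -0.044 to 0.113 over all pairs and mice. Apart from Homer1, the genes averaged at most 0.340 UMIs per thinned nucleus (Nptx2 in mouse 1). Counts this sparse keep r near 0, so how far the genes are linked within nuclei cannot be read from it. Arc was found in 13.1%, 4.73% and 6.92% of those with Homer1, against 13.8%, 3.29% and 5.25% of those without it. The share that unlinked detection would give was not computed. Within mouse 3, granule-like nuclei lay mainly in 2 clusters that were made without these genes. Inhba was at 268 CPM in the cluster of 929 nuclei and 153 CPM in the cluster of 407, and Nptx2 at 244 and 147 CPM, with median depths of 23098 and 29110 UMIs. In mouse 2 a deep cluster of 250 and a shallow cluster of 746 granule-like nuclei had 917 and 890.3 CPM of Homer1 and 27.3 and 43.5 CPM of Arc.

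**Figure D3:**
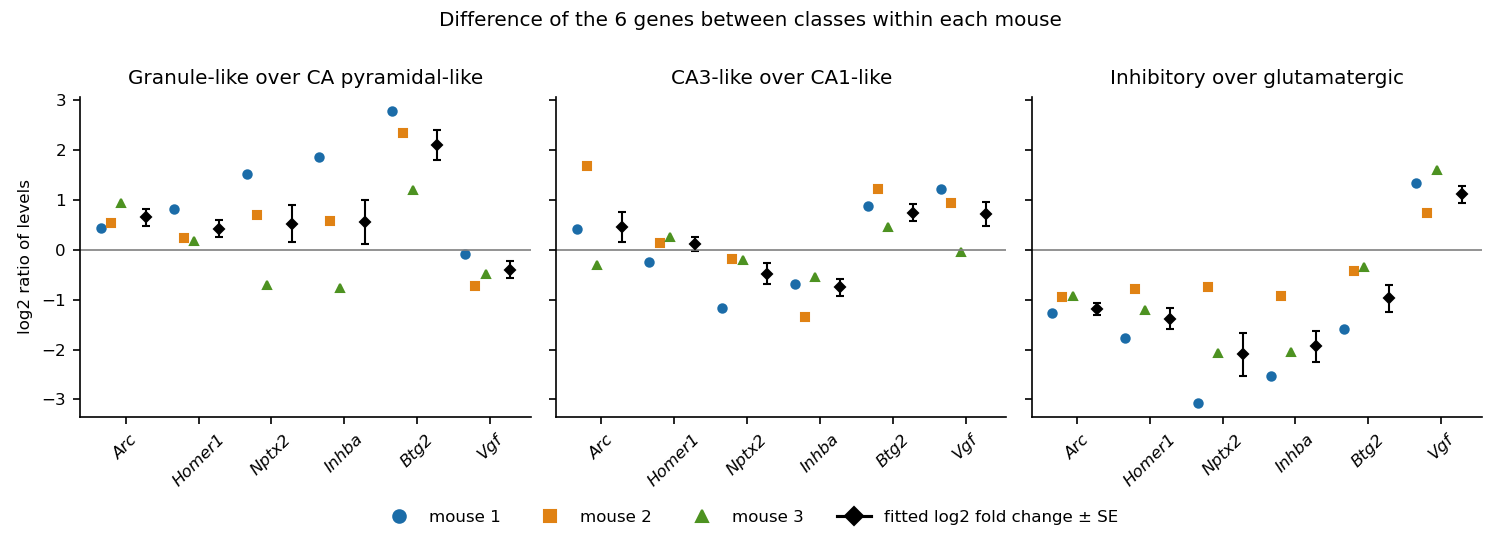
Log2 ratio of levels between 2 classes of the same mouse for each gene (coloured points, 1 per mouse), with the fitted log2 fold change ± SE (black, n = 3 mice), for 3 comparisons. Nptx2 and Inhba lie above 0 in mice 1 and 2 and below 0 in mouse 3 in the comparison of granule-like with CA pyramidal-like nuclei, and Vgf alone lies above 0 in the comparison of inhibitory with glutamatergic nuclei.

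The levels of Homer1, Nptx2 and Inhba over classes ran alike. Pearson r of log2(CPM + 1) was taken over 18, 18 and 17 classes within mice 1, 2 and 3 and averaged over mice, as a description, since classes of a mouse share a library. It was 0.79 for Homer1 with Nptx2, 0.76 for Nptx2 with Inhba, 0.73 for Homer1 with Inhba and 0.70 for Arc with Homer1. Vgf had a negative mean r with each of the other 5 genes, from -0.41 with Inhba to -0.18 with Arc. Among 9945 genes the most similar to Nptx2 were Grasp (0.89), Bdnf (0.87) and Dnajc1 (0.85), and to Homer1 Ankrd33b (0.91), Brinp1 (0.87) and Slit3 (0.87). For Inhba they were Sema3e (0.76), Nptx2 (0.76) and Cbwd1 (0.76), and for Arc Dusp14 (0.76), Ina (0.70) and Pip5k1a (0.70). For Btg2 they were Ptms (0.77), Sdcbp (0.76) and Notch2 (0.75), and for Vgf Gm47027 (0.73) and Col19a1 (0.69).

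Granule-like nuclei were compared with CA pyramidal-like nuclei over the other genes of the response. Of 38 other activity-induced genes, 10 were higher and 1 lower in granule-like nuclei at an adjusted p under 0.05 in edgeR's quasi-likelihood test and an absolute log2 fold change of 1 or more. Over all 17277 genes tested, 17.1% were called, 5.82% higher and 11.3% lower. The median log2 fold change was 0.60 over these genes and 0.04 over all genes. Of the transcription factor genes 5 of 16 were higher. Atf3, a stress-induced factor, was at 23.4, 1.18 and 14.6 CPM in granule-like nuclei of mice 1, 2 and 3, against 0.460, 0.283 and 3.33 CPM in CA pyramidal-like nuclei (log2 fold change 3.44 ± 0.69, adjusted p = 0.0135, edgeR). Both Atf3 values of mouse 2, and that of CA pyramidal-like nuclei of mouse 1, rest on few UMIs. Egr2, a zinc finger factor, had a log2 fold change of 1.93 ± 0.43 (adjusted p = 0.0199, edgeR), and Nr4a2, an orphan nuclear receptor, one of 1.61 ± 0.27 (adjusted p = 0.00743, edgeR). Egr2 was not called without mouse 1 or with thinned nuclei. Fos, Npas4 and Nr4a1 were not called, with log2 fold changes of 0.64, -0.31 and 0.21.

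Of the 22 other activity-induced genes, 5 were higher and 1 lower in granule-like nuclei. Sik1, a kinase of the CREB pathway, had a log2 fold change of 2.08 ± 0.43 (adjusted p = 0.0148, edgeR) and Pcsk1, a prohormone convertase, one of 1.77 ± 0.30 (adjusted p = 0.00726, edgeR). The growth factor Bdnf was at 742, 565 and 1468 CPM in granule-like nuclei, against 146, 151 and 842 CPM in CA pyramidal-like nuclei (log2 fold change 1.70 ± 0.27, adjusted p = 0.00606, edgeR). Dusp5, a phosphatase that acts on ERK, was lower, at 32.7, 7.09 and 9.74 CPM in granule-like nuclei, against 71.8, 30.9 and 46.8 CPM in CA pyramidal-like nuclei (log2 fold change -1.79 ± 0.24, adjusted p = 0.00315, edgeR). Without the mouse block 0 of the 38 genes were called, and with thinned nuclei 7.

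Of 47 partner genes tested for the 6 proteins, 6 were higher and 5 lower in granule-like nuclei, against the 17.1% called over all genes. Of 9 scaffold and receptor partners of Homer1 3 were lower and none higher: Homer2, a second Homer scaffold, at 5.04, 15.5 and 4.05 CPM in granule-like nuclei, against 102, 69.4 and 50.1 CPM in CA pyramidal-like nuclei (log2 fold change -3.39 ± 0.39, adjusted p = 0.00192, edgeR), the calcium release channel Itpr1 (-2.52 ± 0.27) and Homer3 (-1.75 ± 0.18). Of the 12 activin pathway genes tested 3 were higher, the receptor Acvr1c (1.80 ± 0.39), the inhibin subunit Inha (1.63 ± 0.18) and the signal carrier Smad3 (1.30 ± 0.22), and the co-receptor Tgfbr3 was lower. Of 6 pentraxin genes and AMPA receptor subunits Gria4 was higher (1.06 ± 0.31), of 7 BTG, TOB and deadenylase genes Btg1 (1.66 ± 0.22), and none of 6 Arc partners was called. Of 7 granin and prohormone processing genes the protease inhibitor Pcsk1n was higher (1.11 ± 0.14) and the carboxypeptidase Cpe lower (-1.14 ± 0.33). None of the 12 stress genes was called in edgeR.

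CA3-like nuclei were compared with CA1-like nuclei in the same way, under the limit on the CA3-like name in mouse 3 given above. Of 37 other activity-induced genes tested, 3 were higher and 1 lower in CA3-like nuclei, against 9.97% called among 15227 genes, 5.14% higher and 4.83% lower. The median log2 fold change was 0.22 over these genes and -0.03 over all genes. Ptgs2, the inducible cyclooxygenase, was at 279, 84.2 and 300.1 CPM in CA3-like nuclei, against 72.9, 33.5 and 173 CPM in CA1-like nuclei (log2 fold change 1.41 ± 0.21, adjusted p = 0.00394, edgeR). Nr4a3 was at 285, 81.2 and 235 CPM in CA3-like nuclei, against 183, 11.7 and 110.2 CPM in CA1-like nuclei (1.37 ± 0.33, adjusted p = 0.031, edgeR), and Pcsk1 had a log2 fold change of 1.07 ± 0.17. Sorcs3, a sorting receptor, was lower, at 124, 555 and 2210.0 CPM in CA3-like nuclei, against 789.5, 1675 and 3094 CPM in CA1-like nuclei (-1.51 ± 0.37, adjusted p = 0.0321, edgeR). Bdnf, Fos, Npas4 and Nr4a1 were not called, with log2 fold changes of 0.54, 0.41, 0.45 and -0.32. The count of 4 became 1 without mouse 2, which had 50 CA3-like nuclei, 7 without mouse 3, 2 with thinned nuclei or with each library clustered alone, and 0 without the mouse block. With each library clustered alone Nr4a3, Ptgs2 and Sorcs3 were not called. Thinned nuclei lost Nr4a3 and Pcsk1, and leaving out mouse 2 lost Nr4a3, Pcsk1 and Sorcs3. Sorcs3 was not called without mouse 1, and Ptgs2 was not called with doublets kept.

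Of 47 partner genes 8 were higher and 3 lower in CA3-like nuclei, against 9.97% called over all genes. Homer3 was at 105, 60.5 and 12.7 CPM, against 17.6, 9.81 and 5.01 CPM in CA1-like nuclei (log2 fold change 2.21 ± 0.25, adjusted p = 0.00138, edgeR). Homer2 and Itpr1 were lower, with log2 fold changes of -2.01 ± 0.25 and -2.30 ± 0.15. Of the Arc partners Cacng2, an auxiliary subunit of AMPA receptors, was higher (2.11 ± 0.13), as was the endophilin gene Sh3gl3 (1.53 ± 0.25). Nptx1, a second neuronal pentraxin, was higher at 108, 68.1 and 47.9 CPM in CA3-like nuclei, against 44.3, 18.3 and 19.7 CPM in CA1-like nuclei (1.498 ± 0.15, adjusted p = 0.000849, edgeR). In the activin pathway Acvr1c (1.49 ± 0.26) and Tgfbr3 (1.01 ± 0.13) were higher and Smad3 lower (-1.85 ± 0.24), and the granin Chgb was higher (1.46 ± 0.13). No BTG, TOB or deadenylase gene and no stress gene was called in edgeR.

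Inhibitory nuclei were compared with glutamatergic nuclei last. Of 38 other activity-induced genes 1 was higher and 11 lower in inhibitory nuclei, against 14.9% called among 17264 genes, 7.78% higher and 7.14% lower. The median log2 fold change was -0.62 over these genes and -0.01 over all genes. Fos was higher, at 81.0, 7.86 and 81.1 CPM in inhibitory nuclei, against 30.1, 4.27 and 25.3 CPM in glutamatergic nuclei (log2 fold change 1.26 ± 0.16, adjusted p = 0.00665, edgeR). Bdnf was lower, at 34.2, 105 and 81.0 CPM in inhibitory nuclei, against 297, 225 and 906 CPM in glutamatergic nuclei (-2.72 ± 0.51, adjusted p = 0.0175, edgeR). Nrn1, a secreted neuritin, the Ras activator Rasgrp1, Nr4a2 and Nr4a3 were also lower, with log2 fold changes of -2.76 ± 0.48, -2.45 ± 0.44, -2.58 ± 0.40 and -2.33 ± 0.34. Npas4 and Nr4a1 did not reach the fold threshold, with log2 fold changes of -0.61 and -0.91. The count of 12 became 2 without mouse 1 and 4 without the mouse block. Over all genes 604 were called without mouse 1, 494 higher and 110 lower, in place of 2575, 1343 higher and 1232 lower. Fos, Bdnf, Nrn1, Rasgrp1, Nr4a2 and Nr4a3 were among those not called without mouse 1.

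Of 47 partner genes 3 were higher and 8 lower in inhibitory nuclei, against 14.9% called over all genes. Among the pentraxin genes and their targets Gria4, an AMPA receptor subunit, was higher at 1778, 1093 and 1598 CPM, against 386, 299 and 487 CPM in glutamatergic nuclei (log2 fold change 1.80 ± 0.15, adjusted p = 0.0031, edgeR). The pentraxins Nptxr (-1.63 ± 0.22) and Nptx1 (-1.38 ± 0.21) were lower. Cacng2 (1.27 ± 0.22) and the activin receptor Acvr2b (1.09 ± 0.17) were higher, and Acvr1c (-2.42 ± 0.44) and Smad3 (-2.29 ± 0.37) lower. Homer3 (-1.56 ± 0.39), Btg3 (-1.56 ± 0.24), the convertase Pcsk2 (-1.54 ± 0.18) and Chgb (-1.17 ± 0.16) were lower. No stress gene was called in edgeR.

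**Figure D4:**
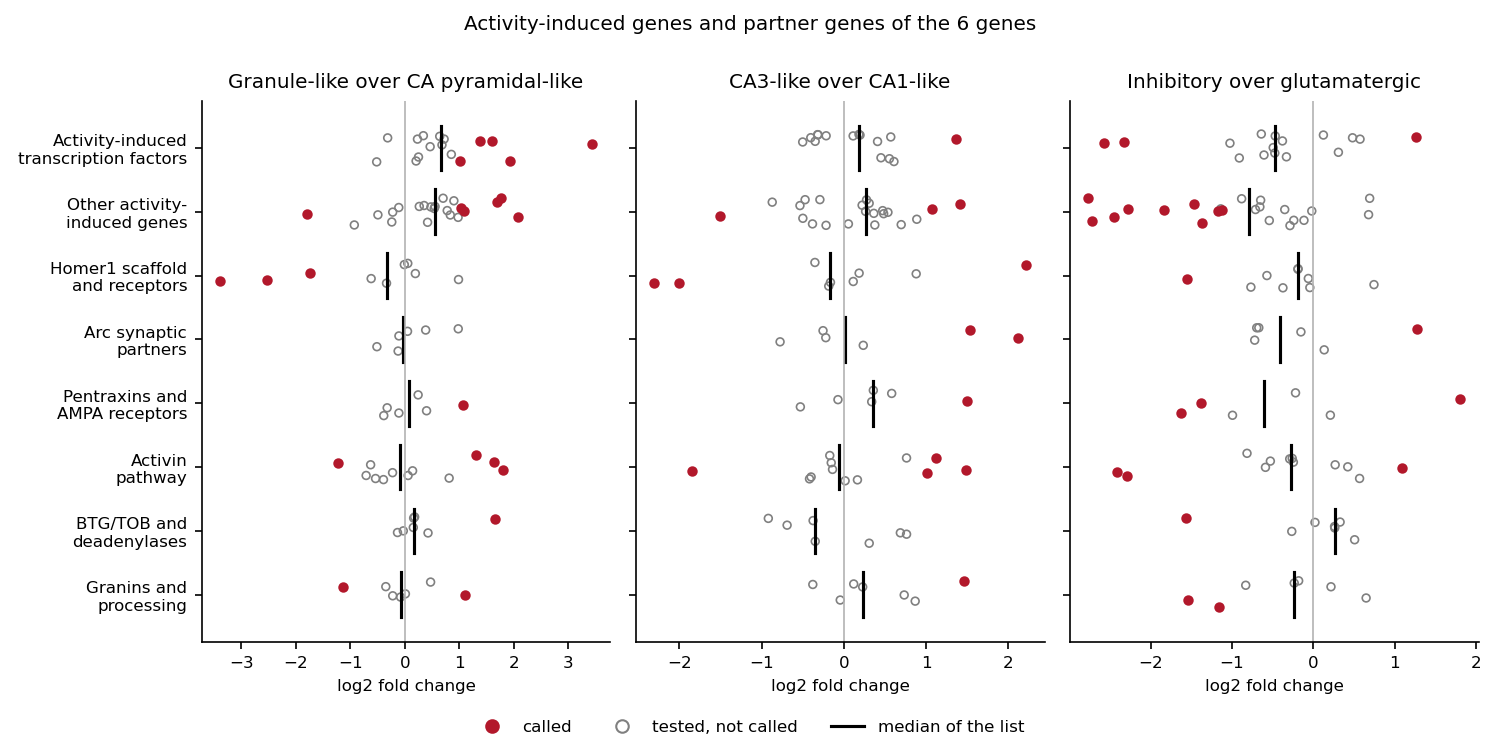
Log2 fold change of each tested gene of 2 lists of activity-induced genes and 6 lists of partner genes in the 3 comparisons; red points were called, open points were not, and bars mark list medians. Over both activity-induced lists 10 genes were higher and 1 lower in granule-like over CA pyramidal-like nuclei, against 1 higher and 11 lower in inhibitory over glutamatergic nuclei.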

How the data were processed

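Single-nucleus RNA libraries of 3 mice were read from the deposited matrices, which hold raw UMI counts by gene and barcode, made by the authors with Cell Ranger 7.0.0 (mice 1 and 2) and 7.1.0 (mouse 3), per the file headers, on mm10, per the submitters' processing notes. Per the labels' protocols, fresh hippocampus was homogenised and propidium iodide-stained nuclei were sorted before 10x 3′ library preparation. Median depth was 8859, 1711 and 25775 UMIs per barcode.

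A minimum of 500 genes per nucleus removed 242, 703 and 1 nuclei, and a maximum of 5% mitochondrial UMIs removed 0. Scrublet (scanpy 1.11.5) then removed 688, 1394 and 271 doublets. Its own threshold called 0 in mouse 2, so a rate of 0.8% per 1000 nuclei set it there, after that result was seen. Clustering used 3000 variable genes without any listed gene, 30 principal components, 20 neighbours and Leiden resolution 1.5 (leidenalg 0.10.2). Clusters were named from marker lists, with at least 3 markers 2-fold above the other nuclei of the same mouse, and the scoring rules were set after clusters were seen. Granule-like nuclei numbered 1835, 996 and 1338, CA1-like 947, 206 and 589, CA3-like 235, 50 and 259 and inhibitory 563, 1404 and 288. A cluster of 96, 873 and 1 nuclei in which CA2 and CA3 could not be separated was counted as CA pyramidal-like only.

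Counts were summed per mouse and class, and CPM computed from them. Replicates are the 3 mice. Classes were compared with edgeR 4.0.16 (R 4.3.3): TMM, filterByExpr, quasi-likelihood test, mouse as a block because both sums come from one animal, Benjamini-Hochberg adjustment over all genes tested, and a call at an adjusted p under 0.05 and an absolute log2 fold change of at least 1. Deviations of the 2 sums of a mouse from the class means correlated at 0.355 to 0.688 across genes. Standard errors were computed from the log2 fold changes and F statistics. The test was also run on counts simulated without a mean difference between mice. That run does not show how the test behaves with the spread between these mice. CPM of a class with 0 UMIs is given as the limit that 3 counts set, and intervals are exact 95% Poisson or binomial intervals that cover counting error only.

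The 6 genes and all lists were chosen with earlier results of these data known. Named beside the 6 genes are, per list and comparison, up to 3 called genes with the largest change and 1 direction in every mouse, plus Bdnf, Fos, Npas4 and Nr4a1, and per gene the 3 genes most alike over classes with at least 20 nuclei, among those with a mean of at least 10 CPM; 1 of these is not reported here. Tgfbr3 in granule-like nuclei was named beyond that rule, after its value was seen. Alternatives were DESeq2 1.42.0, no low-count filter, each mouse left out, no block, thinning to 1000 UMIs, doublets kept and each library clustered alone.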

Additional observations from a re-analysis of the deposited data

How the results depend on the processing

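Counts of called genes over all genes and over the 38 other activity-induced genes depended on the mouse block and on depth. Without the replicate block 1387 genes were called in granule-like over CA pyramidal-like nuclei, 333 in CA3-like over CA1-like nuclei and 1273 in inhibitory over glutamatergic nuclei, in place of 2957, 1518 and 2575. Of the activity-induced genes 0, 0 and 4 were then called by edgeR, with 4, 0 and 9 at an unadjusted p under 0.05. The blocked values are those of the main comparisons, since same-numbered sums come from one mouse. With nuclei thinned to 1000 UMIs the counts over all genes were 990, 433 and 1037, from fewer genes tested, and 7 and 2 activity-induced genes were called in the first and second comparison. With each library clustered alone 2 were called in CA3-like over CA1-like nuclei, of which 1 was among the 4 of the main comparison, and the cause was not tested. Leaving out 1 mouse gave 1 to 7 activity-induced genes in CA3-like over CA1-like nuclei, 2 to 15 in inhibitory over glutamatergic nuclei, and 604 to 2876 genes of all there. In granule-like over CA pyramidal-like nuclei 8 to 13 activity-induced genes were called with a mouse left out.

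DESeq2 called 11, 4 and 14 activity-induced genes in the 3 comparisons, and no filter on low counts gave 11, 5 and 14. The mean log2 CPM ratios of the 6 genes kept their sign under each alternative run for them (each mouse left out, thinned nuclei, each library clustered alone and called doublets kept), except Inhba in granule-like over CA pyramidal-like nuclei (0.56, and -0.09 without mouse 1) and Homer1 in CA3-like over CA1-like nuclei (0.05, and -0.06 without mouse 3 or thinned). Only that of Inhba in CA3-like over CA1-like nuclei moved beyond the spread between mice, with called doublets kept (-1.81) or each library clustered alone (-0.33), in place of -0.86. With thinned nuclei the CA3-like over CA1-like ratios of Nptx2, Btg2 and Vgf rest on 2 mice. Mouse 2 gave no ratio there, since its CA3-like nuclei held 0 thinned UMIs of these genes. Its CA1-like nuclei held 15, 0 and 3, so for Vgf mouse 2 went against the sign that was kept. For Nptx2 mouse 3 went against it, with a mean of 0.382 UMIs per thinned CA3-like nucleus against 0.370 per CA1-like nucleus. The 3 mice, 50 CA3-like and 20 Sst-like nuclei of mouse 2 and its median of 1796 UMIs limit the precision of every value. Levels that rest on few UMIs, such as the 6 UMIs of Btg2 in CA1-like nuclei of mouse 2, carry wide counting intervals.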

Other observations

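Nuclei without a class name entered no comparison. In mouse 1, 321 such nuclei held 115 CPM of Arc, 521 CPM of Homer1, 142 CPM of Nptx2, 19.2 CPM of Inhba, 119 CPM of Btg2 and 84.4 CPM of Vgf. In mouse 2, 3940 such nuclei held 23.7 CPM of Arc, 699 CPM of Homer1, 68.4 CPM of Nptx2, 94.9 CPM of Inhba, 10.2 CPM of Btg2 and 38.6 CPM of Vgf. Clusters of 783 and 696 of these nuclei of mouse 2 shared some of their 10 leading genes with the CA1-like clusters, Gm34466 in the first and Gpc5, Ror1, Stac and 2 others in the second.

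Vascular-like nuclei, few in each mouse (32, 48 and 56), held 106, 35.8 and 78.5 CPM of Btg2, from 18, 3 and 36 UMIs. Cajal-Retzius-like nuclei, early-born neurons of the outer molecular layer (55, 76 and 24 nuclei), held 65.5, 21.02 and 56.8 CPM of Btg2 and 39.9, 17.5 and 26.5 CPM of Vgf.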
